A study of Mus musculus with 12 samples.

Results

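Group-housed Nptx2 KO mice were compared with group-housed wild-type (WT) mice in RNA bound to the ribosomes of cortical parvalbumin interneurons. The comparison took 6 of the 12 libraries of the series, chosen by genotype and housing, and 12716 of the 13190 genes deposited were tested. Each tested gene had a level of at least 1 on the log2(FPKM + 1) scale in at least 3 of the 12 libraries. FPKM is the number of sequenced fragments scaled to transcript length and library size.

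All mice were C57BL/6 and carried PV-Cre k/+ and RiboTag k/k. The 3 KO mice also lacked Nptx2, and the 3 WT mice did not. Both groups were labelled untreated and had lived with cage mates since weaning, for at least 4 weeks; the labels give no age. PV-Cre, a recombinase driven from the parvalbumin gene, switches on the RiboTag in cells that have ever used that gene. RiboTag is an epitope on a ribosomal protein through which ribosomes and their mRNA can be pulled out of brain cortex. The labels state 3 biological replicates per group, and the libraries are named here by the index barcode in the deposited column names. A further 3 KO and 3 WT libraries came from mice housed singly, which the labels call social stress, and their values stand beside some results below. The labels do not say which stretch of Nptx2 was removed, or from which embryonic stem cell strain the allele came. RNA before pulldown was not analysed here, so enrichment for the tagged cells was not measured.

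Nptx2 encodes neuronal pentraxin 2, also called Narp, a secreted protein of excitatory synapses. It is itself an activity-induced gene of excitatory neurons. Together with Nptx1 and the membrane-bound Nptxr it gathers AMPA-type glutamate receptors, GluA4 in particular, at the synapses that excitatory axons make on parvalbumin interneurons. These fast-spiking cells are the main source of perisomatic inhibition in cortex.

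No gene passed an adjusted p of 0.05 in KO against WT under group housing (0 of 12716, 0%; limma with Benjamini-Hochberg adjustment). The lowest adjusted p was 0.0976, shared by D130017N08Rik, Hmgb1-ps1 and Gm12751. At an unadjusted p under 0.05 there were 465 genes (3.66%), 226 with higher values in KO (1.78%) and 239 with lower values (1.88%). In 891 genes (7.01%) the 3 KO and the 3 WT levels did not overlap, with KO higher in 3.15% and lower in 3.86% of all genes. The difference was below 0 in 51.9% of all tested genes. The authors' deposited table, which used limma without a variance trend on all genes, likewise held 0 genes past the adjusted threshold and 510 at an unadjusted p under 0.05. With all libraries in the fit no group-housing difference below passed the adjusted threshold, and "higher" and "lower" refer to the values in these 6 libraries. Differences are KO minus WT on the log2(FPKM + 1) scale with their standard errors (SE, n = 3 per group), and the scale understates differences of low genes.

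The 6 libraries correlated closely. Pearson's r across genes was 0.98 to 0.986 within groups and 0.98 to 0.986 between KO and WT, and every library summed to 412903 FPKM because the deposited values were already quantile normalized. Depth could not be recovered. Every group-housed library listed the Y-linked genes Ddx3y and Eif2s3y at 0. In single housing they were listed at 0 in 1 KO library and lay between 3.20 and 3.62 in the other 5, so sex by these genes differs between the housing conditions. With WT library AGTTCC left out, 11 genes passed the threshold, and that library stood apart from the other 2 WT libraries in Rpl29 and its copies.

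The targeted gene did not have lower levels in KO. Nptx2 had levels of 2.37, 2.74 and 2.62 in KO libraries, against 2.62, 2.34 and 2.31 in WT libraries. The groups overlapped, with a difference of 0.15 ± 0.12 log2 and a 95% interval of -0.11 to 0.41 (limma, unadjusted p = 0.221, adjusted p = 1). In single housing the difference was 0.19. A value summed over a whole gene does not check a deletion whose position is unknown, so the genotype labels were neither borne out nor contradicted by this gene.

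The partners of Nptx2 did not separate by genotype. Nptx1 had levels of 3.28, 3.57 and 3.36 in KO libraries, against 3.47, 3.48 and 3.46 in WT libraries (-0.07 ± 0.10 log2). Nptxr, the pentraxin receptor, differed by -0.07 ± 0.07 log2, with a 95% interval of -0.23 to 0.09. Gria4, which encodes GluA4, had levels of 5.77, 5.85 and 5.94 in KO libraries, against 5.92, 5.95 and 5.97 in WT libraries. Its difference was -0.10 ± 0.05 log2 (limma, unadjusted p = 0.067), and the highest KO level overlapped the WT range. Gria1 and Gria2, which encode other pore subunits, differed by -0.05 ± 0.06 and -0.13 ± 0.10 log2. Of the 23 tested members of the pentraxin and AMPA receptor list, 11 had higher and 12 lower values in KO, 0 had an unadjusted p under 0.05, and the median difference was -0.01 log2, beside -0.004 log2 over all tested genes.

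Markers of parvalbumin interneurons were present at high levels in both genotypes. Pvalb, the calcium buffer that names the cells, had levels of 9.99, 10.12 and 9.93 in KO libraries, against 9.96, 9.91 and 9.91 in WT libraries (0.09 ± 0.13 log2). The GABA-synthesizing enzyme Gad1 had levels of 10.65, 10.65 and 10.68 in KO libraries and 10.60 in each WT library, a difference of 0.06 ± 0.04 log2. Quantile normalization gives all libraries one set of values, so the few genes at the very top can take only a few levels. Gad2, the second GABA-synthesizing enzyme, and Slc32a1, the vesicular GABA transporter, differed by -0.02 ± 0.07 and 0.01 ± 0.04 log2. Over the 28 markers tested, 14 had higher and 14 lower values in KO, with a median of 0.004 log2. Only Syt2, the fast calcium sensor of parvalbumin terminals, had an unadjusted p under 0.05. Its levels were 5.85, 6.09 and 5.66 in KO libraries, against 7.75, 5.84 and 7.77 in WT libraries, so that 1 WT library lay among the KO values and 2 stood apart from all others. The 6 single-housed libraries held Syt2 at 5.82 to 6.54.

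Genes near Nptx2 on chromosome 5 were counted by distance, as a description with no test. The Nptx2 gene occupies chr5:144545902-144557478 in the GRCm38 build. Of 192 genes tested within 10 Mb of it, 25 had an unadjusted p under 0.05 (13%), beside 3.66% of all tested genes. The share was 13.8% within 5 Mb (12 of 87), 12.4% from 5 to 10 Mb (13 of 105), 6.78% from 10 to 20 Mb (4 of 59) and 3.47% farther along the chromosome (21 of 606). On other chromosomes it was 3.5% (415 of 11858). Of the 25 genes, 15 had lower and 10 had higher values in KO.

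**Figure D1:**
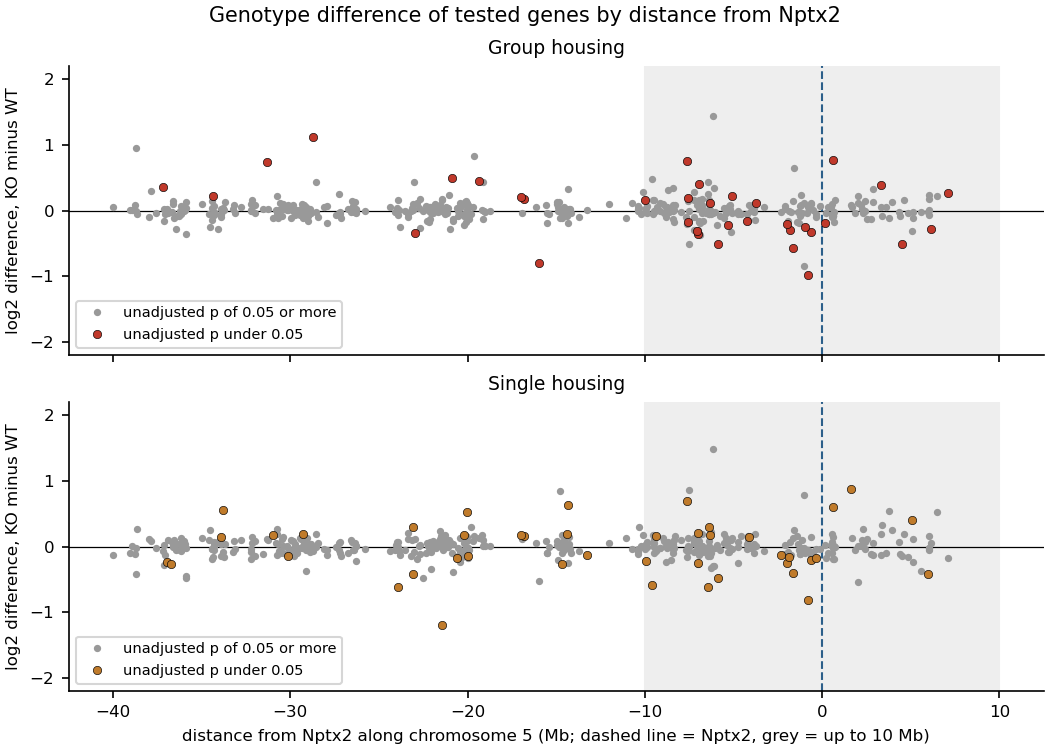
Log2 difference (KO minus WT, vertical axis) of each tested gene within 40 Mb of Nptx2 by distance along chromosome 5 in Mb, in group housing (top) and single housing (bottom), with coloured dots for an unadjusted limma p under 0.05. In the grey zone up to 10 Mb, 25 of 192 genes are coloured in group housing and 22 in single housing.

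The noncoding gene D130017N08Rik, a lincRNA 0.78 Mb from Nptx2, had levels of 2.70, 2.44 and 2.68 in KO libraries, against 3.55, 3.59 and 3.60 in WT libraries. The groups stood far apart, with a difference of -0.98 ± 0.13 log2 and a 95% interval of -1.26 to -0.69 (limma, unadjusted p = 1.67e-05, adjusted p = 0.0976). Actb, the gene of cytoplasmic beta-actin at 1.64 Mb, had levels of 7.90, 7.89 and 7.88 in KO libraries, against 8.59, 8.48 and 8.31 in WT libraries. All 3 KO levels lay below the WT range, at -0.58 ± 0.12 log2 (limma, unadjusted p = 0.00056, adjusted p = 0.791). The 3 KO levels were within 0.02 of each other.

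Eif2ak1, the heme-regulated kinase of the translation factor eIF2, had levels of 4.73, 4.83 and 4.81 in KO libraries, against 5.09, 5.15 and 5.12 in WT libraries (-0.32 ± 0.06 log2). Fam220a differed by -0.25 ± 0.05 log2, also without overlap. Cpsf4, a subunit of the complex that cleaves and polyadenylates pre-mRNA, had the opposite direction. Its levels were 3.07, 2.36 and 2.45 in KO libraries, against 2.02, 1.75 and 1.81 in WT libraries (0.77 ± 0.17 log2; limma, adjusted p = 0.9). The uncharacterized gene 4933404O12Rik, at 7.61 Mb, also had higher levels in all 3 KO libraries (0.76 ± 0.18 log2). A430033K04Rik, at 5.89 Mb, had a difference of -0.52 ± 0.13 log2. Actl6b, a subunit of the neuronal BAF chromatin remodeller at 6.98 Mb, had one of -0.36 ± 0.10 log2.

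**Figure D2:**
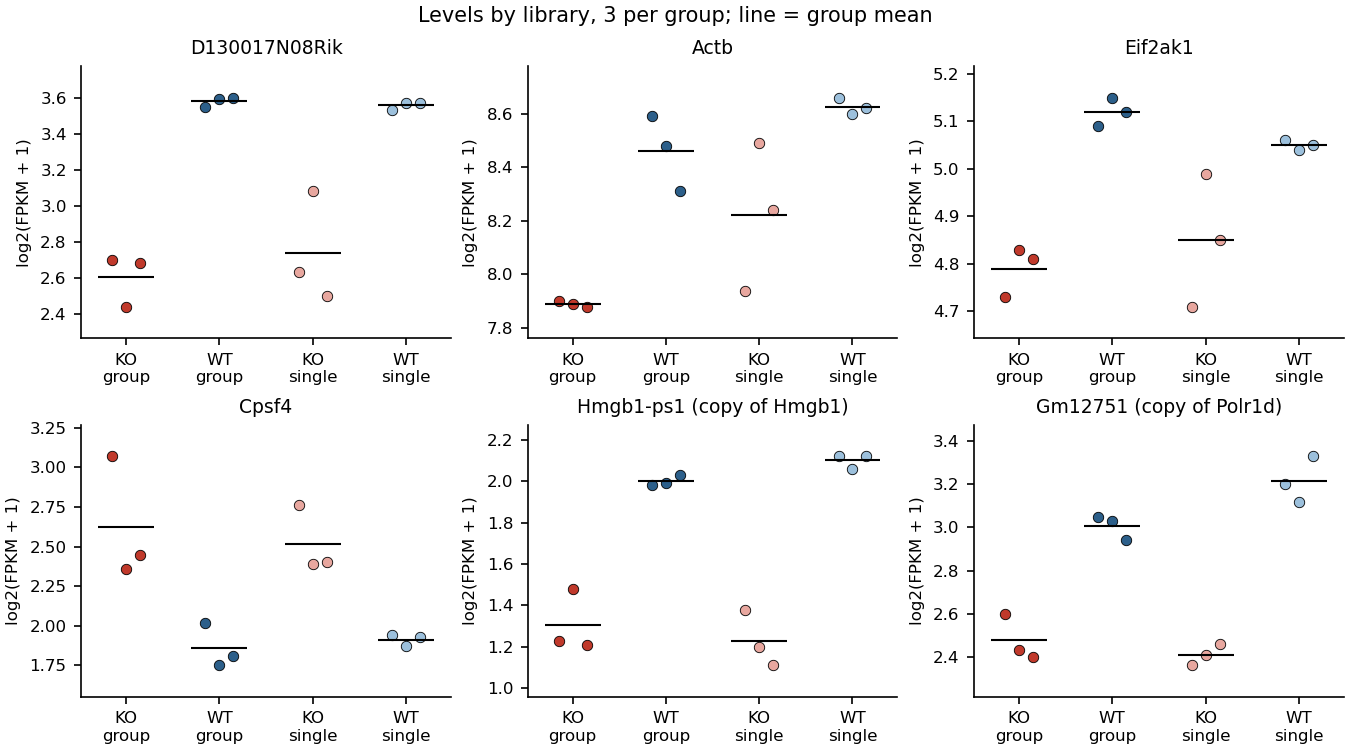
Levels on the log2(FPKM + 1) scale of 4 genes near Nptx2 and 2 processed pseudogenes in each library, 3 per group, with KO left of WT in group and in single housing; the line is the group mean. In D130017N08Rik, Actb, Eif2ak1, Hmgb1-ps1 and Gm12751 all KO levels lie below all WT levels in each housing condition, and in Cpsf4 all lie above.

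The same genotypes in single housing are separate libraries that enter this contrast only through the shared estimate of spread. There D130017N08Rik differed by -0.82 log2, Actb by -0.40, Eif2ak1 by -0.20 and Fam220a by -0.10 log2. Cpsf4 differed by 0.60, 4933404O12Rik by 0.70, A430033K04Rik by -0.48 and Actl6b by -0.26 log2. KO and WT levels overlapped there in Fam220a and Actl6b. Some neighbours did not recur: Tmem130, at 0.18 Mb, differed by -0.18 ± 0.05 log2 in group and 0.03 log2 in single housing. Of the 25 genes within 10 Mb, 18 had the same sign in single housing (72%), and 9 also had an unadjusted p under 0.05 there in the same direction and 0 in the opposite direction. Of the 440 other genes with an unadjusted p under 0.05 in group housing, 177 had the same sign in single housing (40.2%), 17 had an unadjusted p under 0.05 in the same direction and 42 in the opposite one. The background in single housing was 1008 of 12716 genes at that threshold (7.93%). Genotype at Nptx2 and genotype at its linked neighbours cannot be told apart in this design.

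Among the 3 genes with the lowest p, Hmgb1-ps1 on chromosome 11 and Gm12751 on chromosome 4 are processed pseudogenes, copies of an mRNA pasted back into the genome. Each is a near copy of a gene close to Nptx2. Gm12751 was identical over its whole length of 381 bases to Polr1d, a subunit gene of RNA polymerases I and III that lies 2.52 Mb from Nptx2. Hmgb1-ps1 was 96.8% identical to Hmgb1, the gene of a chromatin protein that lies 4.49 Mb from Nptx2, with 20 mismatches. The first 120 bases of Gm12751 and the matching stretch of Polr1d are printed to show that no read inside them can tell the pair apart. They come from the GENCODE M21 transcripts, 5′ to 3′.
Gm12751: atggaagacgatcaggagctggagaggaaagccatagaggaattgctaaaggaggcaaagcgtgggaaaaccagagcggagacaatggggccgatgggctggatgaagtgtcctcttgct
Polr1d: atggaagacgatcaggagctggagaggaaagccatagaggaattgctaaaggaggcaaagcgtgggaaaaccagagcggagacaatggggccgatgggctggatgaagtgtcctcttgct

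For Hmgb1-ps1 and Hmgb1 the printed stretch of 120 bases holds a cluster of differences, marked by capitals. Written from Hmgb1 to Hmgb1-ps1 and counted from 1 at the 5′ end of the stretch, they are A111C, A113G, G114A, A117T and C120A.
Hmgb1-ps1: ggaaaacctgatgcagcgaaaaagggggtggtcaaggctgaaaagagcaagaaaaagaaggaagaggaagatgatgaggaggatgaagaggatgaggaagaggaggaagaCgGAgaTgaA
Hmgb1: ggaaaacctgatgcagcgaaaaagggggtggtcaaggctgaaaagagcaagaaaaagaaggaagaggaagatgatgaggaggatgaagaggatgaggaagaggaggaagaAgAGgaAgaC

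Hmgb1-ps1 had levels of 1.23, 1.48 and 1.21 in KO libraries, against 1.98, 1.99 and 2.03 in WT libraries. The difference was -0.69 ± 0.09 log2 (limma, unadjusted p = 1.3e-05, adjusted p = 0.0976), and it was -0.87 log2 in single housing. Gm12751 had levels of 2.60, 2.43 and 2.40 in KO libraries, against 3.05, 3.03 and 2.94 in WT libraries, a difference of -0.53 ± 0.07 log2 in group and -0.81 log2 in single housing. In both pseudogenes all 6 KO libraries of the series lay below all 6 WT libraries. A second copy, Hmgb1-ps7, which was 98.6% identical to Hmgb1, ran the other way, at 0.22 ± 0.10 log2 in group and 0.54 log2 in single housing. The parent genes were less regular. Hmgb1 had levels of 4.19, 4.21 and 3.36 in KO libraries, against 4.36, 4.38 and 4.54 in WT libraries (-0.50 ± 0.20 log2), and its single-housing difference was -0.15 log2. Polr1d overlapped between groups, at -0.13 ± 0.06 log2 in group and 0.12 log2 in single housing. The sources used here do not say how reads that match both parent and copy were divided, so the values of these pairs are uncertain.

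Apart from the neighbours of Nptx2 and those 2 pseudogenes, the lowest p belonged to Nle1, which is known from work on ribosome assembly. Nle1 had levels of 2.23, 2.21 and 2.21 in KO libraries, against 2.61, 2.70 and 2.57 in WT libraries. The 2 ranges were narrow and separate, at -0.41 ± 0.06 log2 (limma, unadjusted p = 8.2e-05, adjusted p = 0.261), and the single-housing difference was -0.10 log2. Wdr73, a WD-repeat protein mutated in a human syndrome of microcephaly and kidney disease, had levels of 2.61, 2.48 and 2.54 in KO libraries, against 3.13, 3.07 and 2.90 in WT libraries (-0.49 ± 0.08 log2). In single housing its difference was -0.31 log2, again without overlap. A further pair of genes with separated, lower KO levels were low in both groups: Fgf10, a fibroblast growth factor, at -0.33 ± 0.06 log2, and Nr1i3, the nuclear receptor CAR, at -0.66 ± 0.13 log2.

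Genes with higher KO levels at the top of the ranking were mixed in kind. Mapk1ip1 had levels of 3.92, 4.25 and 3.48 in KO libraries, against 3.34, 3.13 and 3.16 in WT libraries (0.68 ± 0.15 log2). Lipt1, which attaches lipoic acid to mitochondrial enzymes, had levels of 2.12, 1.91 and 1.95 in KO libraries, against 1.46, 1.46 and 1.45 in WT libraries (0.54 ± 0.13 log2). Lipt1 was also separated in single housing, by 0.67 log2. Ndufb10, a subunit of respiratory complex I, had levels of 8.0, 7.85 and 7.71 in KO libraries, against 7.45, 7.34 and 7.07 in WT libraries (0.56 ± 0.13 log2), and differed by -0.41 log2 in single housing. Sfxn4, a mitochondrial carrier-family protein, stood at 0.53 ± 0.13 log2, St6galnac6, a sialyltransferase, at 0.25 ± 0.06 log2 and Brdt, a bromodomain gene on chromosome 5 far from Nptx2, at 0.36 ± 0.07 log2. Adjusted p-values for these 6 genes lay between 0.838 and 0.942.

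Many of the wide differences came from genes that took 2 separate levels across the libraries of the series. A gene was counted as having 2 levels where its 12 sorted values held a gap of at least 1 log2 with at least 2 libraries on each side and little spread on either side, a definition set with the values in view. By it 170 of 12716 genes (1.34%) had 2 levels. Among the 84 genes with an absolute difference of at least 1 log2 between KO and WT in group housing, 39 had 2 levels (46.4%). In 5 genes the levels split exactly by genotype in group housing, in 2 they did so in single housing, and in 0 they did so in both. The 5 include Gm4613 and Gm24865, which overlap in the genome and are described below.

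Gpx1, the cytosolic glutathione peroxidase, had levels of 5.61, 5.89 and 5.75 in KO libraries, against 3.57, 3.35 and 3.61 in WT libraries (2.24 ± 0.68 log2; limma, adjusted p = 1). In single housing it stood at 5.95, 5.70 and 3.48 in KO libraries, against 3.49, 5.79 and 3.60 in WT libraries, so that both levels occurred in both genotypes. Tnpo1, the nuclear import receptor transportin, had levels of 2.41, 2.52 and 2.57 in KO libraries, against 0.31, 0.76 and 0.38 in WT libraries (2.02 ± 0.45 log2). Its single-housed libraries were at 0.33 or less except 1 WT library at 2.36. The split by genotype in group housing therefore did not recur in either gene.

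Gm4613, a pseudogene 97.8% identical to the ribosomal protein gene Rpl37a, had levels of 3.73, 3.68 and 3.36 in KO libraries and was listed at 0 in the 3 WT libraries. Single-housed libraries of each genotype held both states. Gm43580 lies inside the phosphatase gene Inpp5f on the same strand of chromosome 7, and its 284 bases all match a transcript of that gene. Gm43580 differed by 3.04 ± 0.85 log2, and Inpp5f by -0.09 ± 0.11 log2. The small noncoding gene Gm24865 differed by -2.27 ± 0.68 log2 and lies inside Gm4613 on the same strand. Gm24865 was low in every library of the series where Gm4613 was high, and high wherever Gm4613 was listed at 0. Their 2 differences are therefore not separate observations. Gm43580 and Gm24865 also had high and low libraries in each genotype under single housing. Some genes of wide difference did not meet the definition. Slc43a2, an amino acid transporter, differed by -1.67 ± 0.52 log2, Rbm12, an RNA-binding protein, by -1.60 ± 0.44 log2, Gas7 by -1.46 ± 0.62 log2 and the postsynaptic scaffold Tanc2 by 2.03 ± 0.86 log2. Each of these 4 genes had single-housed KO libraries at both its high and its low level. In Slc43a2, Gas7 and Tanc2 the single-housed WT libraries also held both levels. In Rbm12 the low level, at 0.02 or less, occurred only in KO libraries. Its WT libraries lay at 1.21 to 1.92 in group and 1.74 to 1.77 in single housing. The pseudogene Gm8225, which did meet the definition, was likewise low only in KO libraries, with WT libraries between 2.42 and 2.77.

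**Figure D3:**
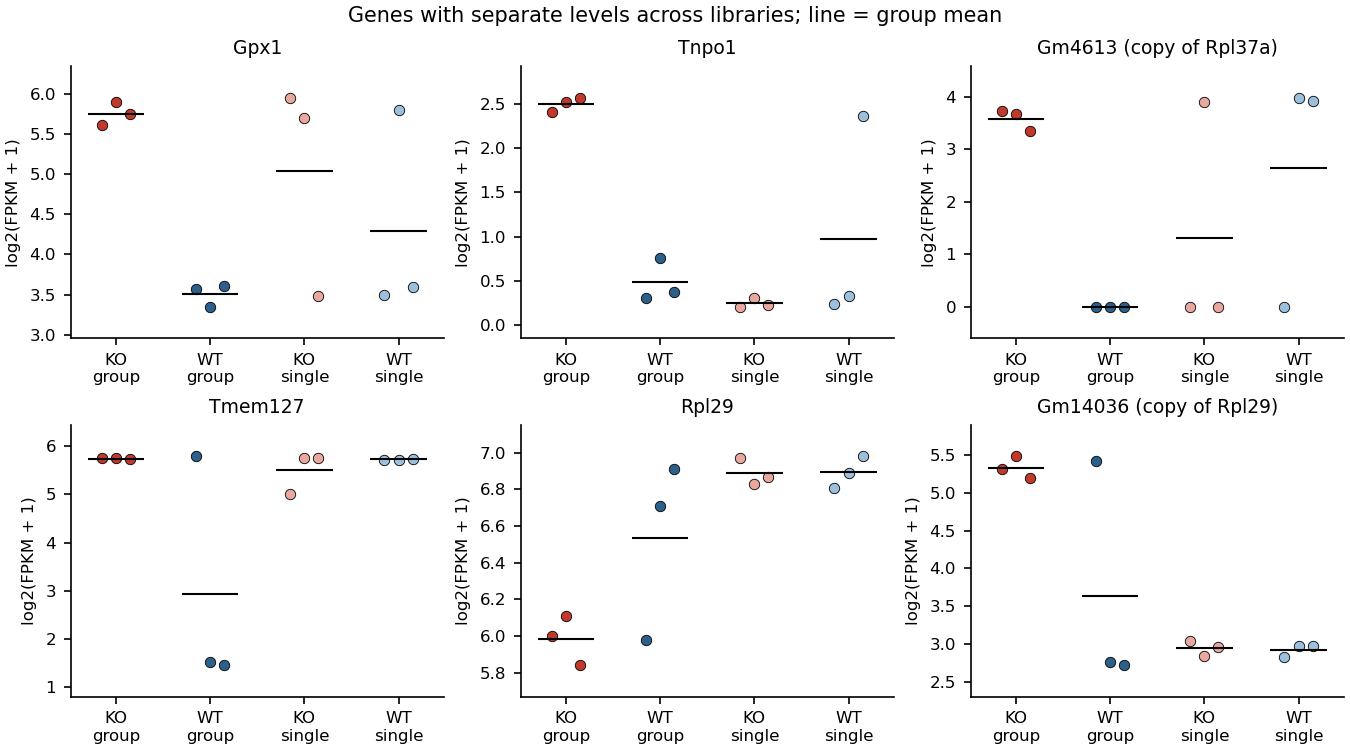
Levels on the log2(FPKM + 1) scale of 6 genes in each library, 3 per group, with KO left of WT in group and in single housing; the line is the group mean. Gpx1 and Gm4613 hold high and low libraries in both genotypes under single housing, and in Tmem127, Rpl29 and Gm14036 1 WT library of group housing sits with the KO libraries.

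Rpl29, a protein of the large ribosomal subunit, and 4 copies of it showed a related pattern. Rpl29 had levels of 6.00, 6.11 and 5.84 in KO libraries, against 5.98, 6.71 and 6.91 in WT libraries, and the low WT level was that of library AGTTCC. Its copy Gm14036 had levels of 5.31, 5.48 and 5.20 in KO libraries, against 5.42, 2.77 and 2.72 in WT libraries, and again library AGTTCC sat with the KO libraries. All 6 single-housed libraries lay on the other side, between 6.81 and 6.98 for Rpl29 and between 2.83 and 3.04 for Gm14036. Gm8210, Gm13841 and Gm6344 followed Gm14036, with differences of 1.40 ± 0.43, 1.12 ± 0.36 and 1.31 ± 0.30 log2. All 4 copies were 99.4% identical to Rpl29, with 3 mismatches each. The stretch of 120 bases printed here holds 2 of them, in capitals, which are G51A and C120T written from Rpl29 to Gm14036 and counted from 1 at its 5′ end.
Gm14036: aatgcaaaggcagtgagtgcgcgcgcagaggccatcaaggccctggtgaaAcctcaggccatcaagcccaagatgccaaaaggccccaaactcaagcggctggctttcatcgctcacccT
Rpl29: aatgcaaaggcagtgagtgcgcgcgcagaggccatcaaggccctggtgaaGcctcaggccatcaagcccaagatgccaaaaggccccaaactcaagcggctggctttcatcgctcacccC

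Summed over Rpl29 and its 4 copies, FPKM was 187, 203 and 170 in KO libraries, against 186, 131 and 146 in WT libraries. Rpl29 alone stood at 63, 68.2 and 56.3 FPKM in KO libraries, against 62.2, 103 and 119 FPKM in WT libraries. With all libraries Rpl29 differed by -0.55 ± 0.19 log2 and Gm14036 by 1.70 ± 0.56 log2. Without library AGTTCC, the WT library at the KO level, the differences were -0.82 and 2.59 log2. Both were among the 11 genes that then passed the adjusted threshold. Leaving out the library that overlapped makes such a split, so this is no test of genotype. Tmem127, a membrane protein, split the same way in group housing, but its single-housed libraries, at 5.01 to 5.76, lay with the KO libraries. Its levels were 5.75, 5.75 and 5.73 in KO libraries, against 5.79, 1.53 and 1.45 in WT libraries. The cause of the 2 levels was not tested.

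Immediate early genes, which neurons transcribe within minutes of activity, had lower values in KO than in WT under group housing. Of 39 tested, 33 had lower and 6 had higher values in KO, with a median of -0.175 log2, beside -0.004 log2 over all tested genes. At an unadjusted p under 0.05 there were 12 lower and 0 higher, beside a background of 1.88% of all tested genes lower and 1.78% higher. The groups did not overlap in 10 of the 39, all lower in KO, beside 3.86% of all tested genes. No member passed the adjusted threshold.

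Egr1, a zinc-finger factor induced by synaptic activity, had levels of 3.13, 3.82 and 3.20 in KO libraries, against 3.71, 4.47 and 4.17 in WT libraries. The highest KO level exceeded the lowest WT level, and the difference was -0.73 ± 0.21 log2 (limma, unadjusted p = 0.00497, adjusted p = 1). Fos, a subunit of the AP-1 factor, had levels of 2.64, 3.62 and 3.01 in KO libraries, against 3.42, 4.04 and 3.75 in WT libraries (-0.65 ± 0.23 log2). The orphan nuclear receptor gene Nr4a1 had levels of 2.03, 2.95 and 2.35 in KO libraries, against 2.83, 3.82 and 3.48 in WT libraries (-0.93 ± 0.30 log2). In all 3 genes KO library ATGTCA was the highest of its group and overlapped WT library AGTTCC, the lowest of its own.

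Junb, another AP-1 subunit, had levels of 3.27, 4.04 and 3.71 in KO libraries, against 4.10, 4.51 and 4.12 in WT libraries (-0.57 ± 0.24 log2), with no overlap. Dusp6, a phosphatase that switches off ERK, had levels of 2.53, 2.65 and 2.55 in KO libraries, against 2.74, 2.95 and 2.79 in WT libraries (-0.25 ± 0.07 log2). Further separated differences belonged to Ier2 (-0.44), Egr4 (-0.43), Klf10 (-0.35), Csrnp1 (-0.34), Dusp5 (-0.24), Ier3 (-0.21) and Plk2 (-0.16 log2). Arc, the synaptic capsid-like protein, had the widest difference of the list, -1.29 ± 0.60 log2. Its levels were 1.35, 3.40 and 2.77 in KO libraries, against 3.27, 4.40 and 3.73 in WT libraries, with overlap. Npas4, a factor specific to calcium signalling in neurons, differed by -0.28 ± 0.14 log2.

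**Figure D4:**
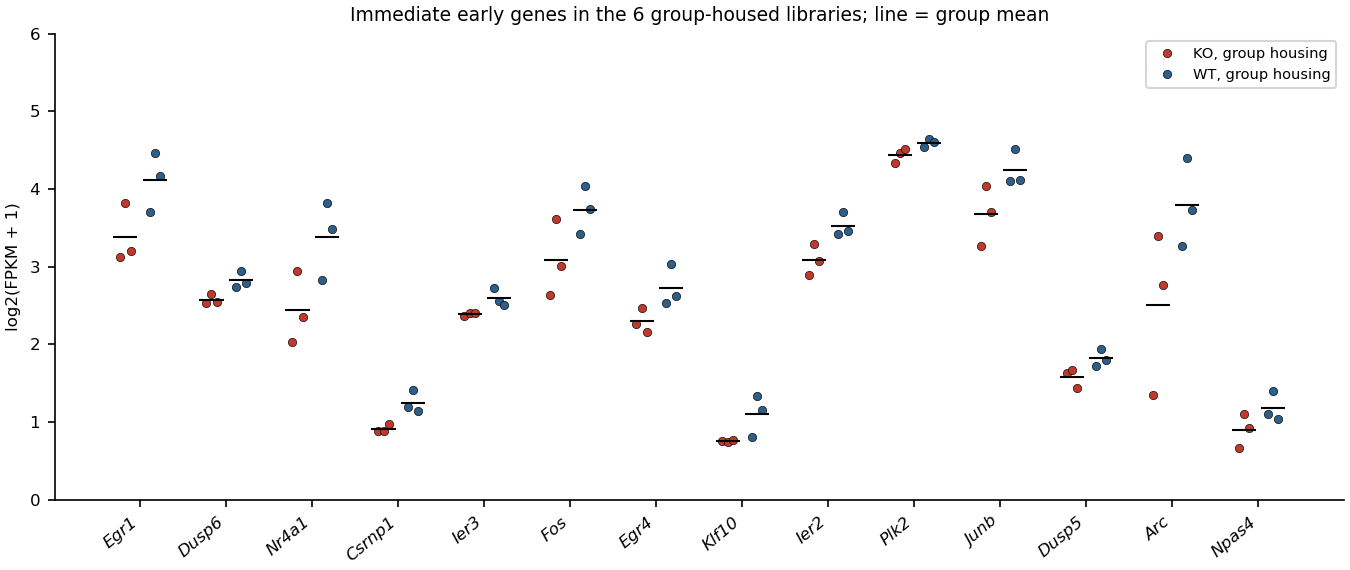
Levels on the log2(FPKM + 1) scale of the 12 immediate early genes with an unadjusted p under 0.05, and of Arc and Npas4, in the 6 group-housed libraries, with KO left of WT and the group mean as a line. KO means lie below WT means in all 14 genes, while single libraries overlap in Egr1, Nr4a1, Fos, Arc and Npas4.

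The mean deviation of the 39 genes from their averages over the 12 libraries was -0.093, 0.138 and -0.033 log2 in KO libraries, against 0.133, 0.369 and 0.217 log2 in WT libraries, so the highest KO library and the lowest WT library met. Without WT library CCGTCC, the highest, 3 members had an unadjusted p under 0.05 in place of 12, and the median was -0.13 log2. Over all 6 single omissions that count ran from 3 to 14, all lower in KO, with medians of -0.213 to -0.13 log2. In bulk RNA, fewer cells with an induced gene and less of it per cell cannot be told apart. The labels give no time of day or handling before tissue was taken.

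In single housing the same list ran the other way, with 28 genes higher and 11 lower in KO, 9 with an unadjusted p under 0.05 higher and 0 lower, and a median of 0.175 log2. Over all tested genes in single housing 49.1% were above 0 and 50.9% below, and 4.07% higher and 3.86% lower at that threshold. Fos differed by 1.05 log2 there, Egr1 by 0.95 log2 and Dusp6 by 0.29 log2. The difference between the 2 housing conditions had unadjusted p-values of 0.000163 for Egr1, 0.000341 for Fos and 0.000349 for Dusp6 (limma, interaction term), with adjusted p-values of 0.295, 0.471 and 0.471. Sex by the Y-linked genes also differed between the housing conditions and among the single-housed KO libraries. Housing and sex therefore cannot be told apart in this reversal.

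Early genes are switched on through CREB sites, with the core TGACG, and through the serum response factor, which binds the CArG box. The promoters of Fos, Nr4a1 and Dusp5 are printed because these genes had lower KO values and hold such motifs, in capitals. They run from 250 bases before to 50 bases after the RefSeq start in GRCm38.p6, at chr12:85473640-85473939, chr15:101266596-101266895 and chr19:53528895-53529194, all on the plus strand. In Fos and Nr4a1 the capitals mark TGACG or its reverse complement CGTCA. In Dusp5 they mark 2 adjoining CArG boxes and 1 CGTCA.
Fos: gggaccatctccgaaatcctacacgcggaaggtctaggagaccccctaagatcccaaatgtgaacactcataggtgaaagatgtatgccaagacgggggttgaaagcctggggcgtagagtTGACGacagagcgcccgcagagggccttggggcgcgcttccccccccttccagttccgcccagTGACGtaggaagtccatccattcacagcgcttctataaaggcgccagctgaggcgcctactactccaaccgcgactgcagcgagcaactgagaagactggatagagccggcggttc
Nr4a1: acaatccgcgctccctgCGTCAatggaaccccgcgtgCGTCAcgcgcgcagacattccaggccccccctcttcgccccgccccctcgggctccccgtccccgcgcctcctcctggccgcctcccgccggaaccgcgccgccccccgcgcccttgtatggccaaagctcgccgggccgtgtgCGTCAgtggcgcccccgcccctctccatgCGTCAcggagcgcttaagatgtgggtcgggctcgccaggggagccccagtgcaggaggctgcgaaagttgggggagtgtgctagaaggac
Dusp5: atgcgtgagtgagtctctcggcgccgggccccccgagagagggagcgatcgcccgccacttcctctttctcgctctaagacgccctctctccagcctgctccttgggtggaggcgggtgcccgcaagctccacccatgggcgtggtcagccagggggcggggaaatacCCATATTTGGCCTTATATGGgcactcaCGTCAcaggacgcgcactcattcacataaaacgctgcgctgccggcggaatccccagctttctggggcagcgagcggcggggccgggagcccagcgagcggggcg

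TGACG was found on either strand in 7 of the 9 early genes with lower values and an unadjusted p under 0.05 that matched a RefSeq promoter, and in 19 of all 27 early genes that matched. Of all 32851 promoters of the same length, 20.8% held it, and 23% of the 27025 genes had such a promoter. The palindrome TGACGTCA, which contains TGACG, was in 1 of the 9 (Plk2) and 4 of the 27, beside 1.79% of all promoters and 2.03% of genes. A CArG box was in 1 of the 9 (Dusp5) and 1 of the 27, beside 1.63% of all promoters and 1.81% of genes. These are matches of letters in a window of 300 bases and not measured binding.

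Among the cell's electrical and synaptic genes, few stood apart. Of 38 voltage-gated and other channels tested, 18 had higher and 20 lower values in KO, with 2 at an unadjusted p under 0.05, both lower. Over all tested genes 51.9% were lower, and 1.88% were lower at that threshold. Hcn3, a pacemaker channel, had levels of 2.37, 2.64 and 2.64 in KO libraries, against 2.78, 2.78 and 2.79 in WT libraries (-0.24 ± 0.08 log2). Scn2b, a sodium channel beta subunit, had levels of 5.29, 6.46 and 5.40 in KO libraries, against 6.42, 6.44 and 6.37 in WT libraries, so that only 2 of 3 KO libraries were low. With all libraries Scn2b differed by -0.69 ± 0.24 log2, and by 0.20 log2 in single housing. Leaving out ATGTCA, the KO library that was not low, widened the group-housing difference to -1.07 log2. That follows from the choice of library and is no test of genotype. None of 13 GABA receptor subunits, 11 perineuronal net genes, 18 other glutamate receptors or 28 synaptic adhesion genes had an unadjusted p under 0.05 (0 in each list), and their medians lay between -0.029 and 0.024 log2. Bcan, the net proteoglycan brevican, had levels of 5.31, 5.45 and 5.44 in KO libraries, against 5.47, 5.48 and 5.53 in WT libraries. Of 35 vesicle release genes, Syt2 was lower and Ppfia3, the active zone protein liprin-alpha-3, higher at an unadjusted p under 0.05. Ppfia3 had levels of 5.16, 5.36 and 4.70 in KO libraries, against 4.30, 4.59 and 4.72 in WT libraries (0.54 ± 0.20 log2).

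Respiratory chain genes had slightly higher values in KO. In complex I, 26 of 36 were higher, with a median of 0.053 log2, and in complexes II to V 34 of 44 were higher, with a median of 0.031 log2. Over all tested genes 48.1% were higher. Leaving out 1 library moved these medians between 0.021 and 0.085 log2 (lowest without WT library GTCCGC) and between 0.008 and 0.05 log2 (lowest without KO library ATGTCA). The mean deviation of complexes II to V was -0.034, 0.072 and -0.016 log2 in KO libraries, against 0.012, -0.035 and -0.063 log2 in WT libraries, with overlap. Only Ndufb10 of complex I and Atp5h of the ATP synthase (0.14 ± 0.06 log2) had an unadjusted p under 0.05. In single housing the medians were -0.047 and -0.039 log2. Among 77 mitochondrial ribosomal proteins 43 were higher and 34 lower, with Mrpl48 at 0.61 ± 0.16 log2 and Mrpl3 at -0.30 ± 0.08 log2, both without overlap.

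Cytosolic ribosomal proteins had slightly lower values, in 60 of 85 genes, with a median of -0.03 log2. This direction rested on 1 library. KO library GTGAAA had a mean deviation of -0.195 log2 over the list, while the other 5 lay between -0.014 and 0.075 log2, and without it the median was 0.053 log2. Rpl3, a core protein of the large subunit, was the clearest member. Its levels were 6.71, 6.71 and 6.60 in KO libraries, against 7.17, 7.09 and 7.21 in WT libraries (-0.48 ± 0.11 log2; limma, adjusted p = 0.9), and its single-housing difference was -0.04 log2. Rpl29 and Rpl7l1 (-0.13 ± 0.05 log2) were the other 2 members with an unadjusted p under 0.05. These 3 of 85, all lower, stood beside 3.66% of all tested genes in either direction and 1.88% lower.

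Targets of ATF4, the factor of the amino acid and integrated stress response, had the lowest median of the larger lists, -0.209 log2, with 24 of 28 lower in KO. No member had an unadjusted p under 0.05 (0 of 28). The list split by library and not by genotype: its mean deviation was 0.645, -0.323 and -0.363 log2 in KO libraries, against -0.324, 0.375 and 0.448 log2 in WT libraries. Atf4 itself had levels of 8.42, 7.41 and 7.59 in KO libraries, against 7.46, 8.23 and 8.46 in WT libraries. 1 KO and 2 WT libraries were thus high, and leaving out single libraries moved the median between -0.566 and -0.021 log2.

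Of 21 cytosolic heat shock genes 15 were lower in KO, with a median of -0.074 log2 and 1 at an unadjusted p under 0.05. Over all tested genes 51.9% were lower, and 3.66% were at that threshold in either direction. In single housing 16 of these heat shock genes were higher and 5 lower in KO, with a median of 0.104 log2. Of 23 endoplasmic reticulum chaperones 11 were higher and 12 lower, with a median of -0.012 log2 and 0 at that threshold. Hspa8, the constitutive Hsc70, had levels of 10.02, 9.74 and 9.88 in KO libraries, against 10.31, 10.48 and 10.17 in WT libraries (-0.44 ± 0.18 log2). Of 17 glucocorticoid-responsive genes 15 were lower, with a median of -0.13 log2, beside 51.9% of all tested genes. The median was -0.051 log2 without KO library GTGAAA and -0.071 log2 without WT library CCGTCC. Ddit4, an inhibitor of mTORC1, had levels of 3.79, 4.12 and 3.85 in KO libraries, against 4.12, 4.50 and 4.28 in WT libraries (-0.38 ± 0.14 log2). Fkbp4, a cochaperone of steroid receptors, differed by -0.13 ± 0.04 log2, with no overlap. Those 2 of 17 were the members with an unadjusted p under 0.05, both lower, beside 1.88% of all tested genes, and some members are also early or ATF4 target genes. Rps6kb2, an S6 kinase downstream of mTORC1, differed by -0.27 ± 0.08 log2.

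Genes of other cell types, which a ribosome pulldown can carry along, were measured in the same libraries. All 5 complement genes tested had lower values in KO, with a median of -0.24 log2, and the C1q chains among them are made by microglia. C1qc had levels of 2.36, 2.72 and 2.55 in KO libraries, against 2.90, 2.86 and 2.91 in WT libraries (-0.35 ± 0.10 log2). C1qa had levels of 2.63, 2.90 and 3.03 in KO libraries, against 3.23, 3.08 and 3.12 in WT libraries (-0.29 ± 0.09 log2). Of 15 microglia markers 11 were lower, with a median of -0.086 log2, and list means of -0.165, 0.092 and -0.05 log2 in KO libraries, against 0.197, -0.041 and -0.076 log2 in WT libraries. Without WT library AGTTCC the median was -0.007 log2, without KO library CGATGT -0.034 log2 and without KO library GTGAAA -0.041 log2. Trem2, a microglial lipid receptor, had the opposite direction (0.41 ± 0.15 log2) and was the 1 microglia marker higher at an unadjusted p under 0.05. The 2 microglia markers lower at that threshold were again C1qc and C1qa. Over all tested genes 1.88% were lower and 1.78% higher at it. In single housing 3 complement genes were higher and 2 lower in KO, with a median of 0.016 log2. Of the 15 microglia markers 13 were higher there, with a median of 0.087 log2. Because the C1q genes were counted under complement and under microglia, these medians are not separate observations. The part of microglial RNA in the C1q values was not tested.

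Excitatory neuron markers had a median of -0.013 log2 over 16 genes, and Slc17a7, the vesicular glutamate transporter of cortex, had levels of 5.63, 5.59 and 5.63 in KO libraries, against 5.57, 5.70 and 5.73 in WT libraries. Oligodendrocyte markers were lower in 10 of 14, with Mag, a myelin adhesion protein, at 2.56, 2.48 and 2.59 in KO libraries, against 2.88, 2.83 and 2.80 in WT libraries (-0.29 ± 0.08 log2). Mbp, the main myelin basic protein, ran the other way at 0.32 ± 0.19 log2. Of 11 markers of other interneuron types 8 were lower and 3 higher in KO, with a median of -0.068 log2. Only Lamp5, a marker of neurogliaform cells that some cortical excitatory cells share, had an unadjusted p under 0.05. Lamp5 had levels of 4.44, 4.26 and 4.23 in KO libraries, against 4.51, 4.57 and 4.83 in WT libraries (-0.33 ± 0.11 log2). In single housing Lamp5 differed by 0.18 log2, and the median of these markers was 0.137 log2. Ttr, a marker of choroid plexus, had levels of 3.23, 5.02 and 4.58 in KO libraries, against 5.60, 5.46 and 6.13 in WT libraries (-1.45 ± 0.48 log2). Its list of striatal, thalamic, cerebellar and choroid markers had 6 of 10 higher in KO, a median of 0.009 log2, and Ttr as the 1 member with an unadjusted p under 0.05. Blood markers varied by library and not by genotype, with list means of -0.163, -0.522 and 0.852 log2 in KO libraries, against -0.113, 0.979 and -0.442 log2 in WT libraries.

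**Figure D5:**
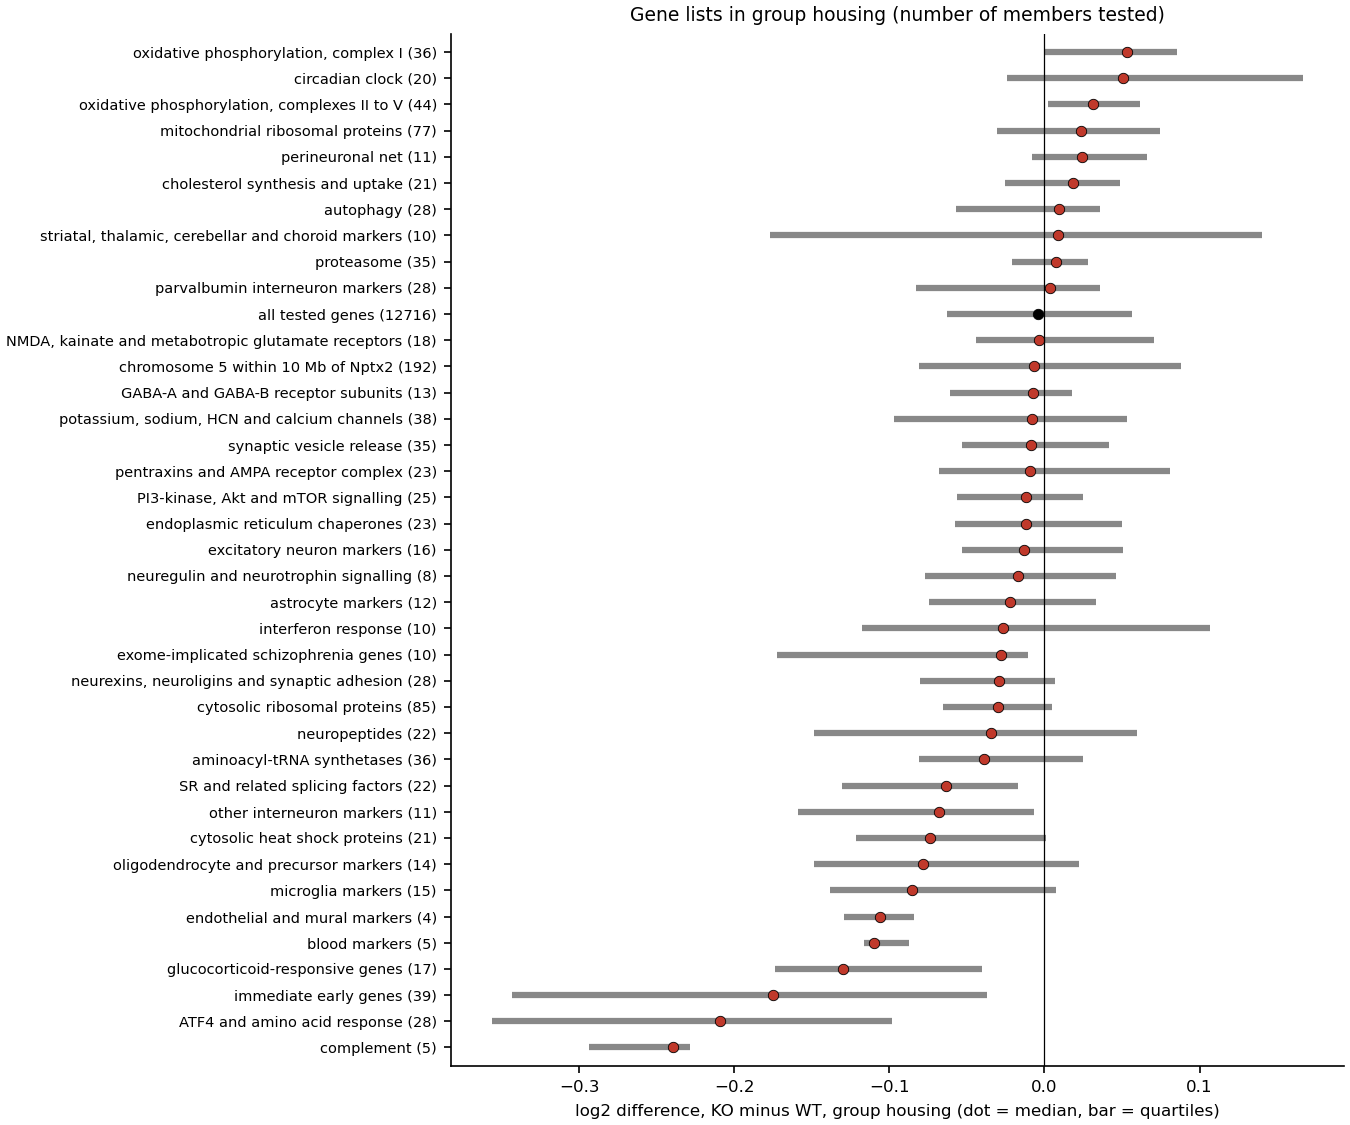
Median log2 difference (KO minus WT, group housing) of the tested members of each gene list, as a dot, with a bar from the lower to the upper quartile; the number of members tested is in brackets and the black dot is all 12716 tested genes. Complement, ATF4 targets and immediate early genes lie lowest, at -0.24, -0.209 and -0.175 log2, and complex I lies highest, at 0.053 log2.

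Against single housing, the genotype contrast of group housing shared few genes. Of the 465 genes with an unadjusted p under 0.05 in group housing, 26 had such a p in the same direction in single housing, which was 5.59% of the group-housing genes and 2.58% of the 1008 single-housing genes, and 42 in the opposite direction. The difference between the 2 contrasts passed an adjusted p of 0.05 in 1 of 12716 genes (0.00786%; limma, interaction term). That gene was Ccdc71, with levels of 3.83, 3.81 and 3.94 in KO libraries, against 3.92, 3.90 and 3.76 in WT libraries under group housing, and a difference of -2.10 log2 in single housing. At an unadjusted p under 0.05 the interaction held 981 genes (7.71%). Because sex by the Y-linked genes differed between the housing conditions, the interaction cannot tell housing from sex. KO against WT in single housing passed the adjusted threshold in 5 genes (0.0393%), and its levels did not overlap in 2007 genes (15.8%).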

How the data were processed

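The authors deposited a table of log2(FPKM + 1) values per gene and library, with their own limma p-values, log2 differences (WT minus KO) and score columns (moderated t and F statistics). Per the submitters' processing notes, HISAT2, StringTie and limma were used with GRCm38, with no version given in the sources used here. The mRNA kit was stranded, per the labels. Repeating quantile normalization moved no deposited value by more than 0.00883 log2, so the values were already normalized this way. Repeating the authors' comparisons gave t statistics within 5.00e-06 of the deposited ones. No counts were at hand, so no counting interval can be given.

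All 12 libraries entered 1 limma 3.58.1 model in R 4.3.3 with 4 group means and a variance trend. It had 8 residual degrees of freedom, to which moderation added 2.18. P-values were adjusted by Benjamini-Hochberg over 12716 genes, with a two-sided threshold of 0.05. The script was tested on simulated data. Intervals are 95%. Of the gene IDs, 13131 were found in GENCODE M21 and 59 were not. Copies were matched to transcripts with BLAST 2.17.0, and promoters came from RefSeq (GRCm38.p6).

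The genes named were Nptx2, Nptx1, Nptxr, Gria4 and Pvalb, the 10 genes per direction with the smallest p and the 5 with the widest difference among those without overlap, up to 4 per list by p and the sex-linked genes. Other genes near Nptx2, the copies and their parent genes, further early genes and the genes in the closing part were chosen after their values were seen. The libraries and the 38 gene lists were chosen with earlier results of these data known.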

Additional observations from a re-analysis of the deposited data

Results flagged for a closer look

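In 7 genes named above, the 3 KO libraries lay entirely on one side of the 3 WT libraries in group housing and entirely on the other side in single housing. The difference between the genotype contrasts (group minus single housing, log2) was 0.97 for Ndufb10 (limma interaction, unadjusted p = 0.000408, adjusted p = 0.471), 0.95 for Mapk1ip1, -0.54 for Dusp6, -0.48 for Hcn3, -0.28 for Rpl7l1, -0.24 for Fkbp4 and -2.38 for Ttr. None of these 7 passed the adjusted threshold of the interaction test. Such complete reversal was seen in 77 of 12716 tested genes, beside 59 genes that were separated in the same direction in both housing conditions. Sex by the Y-linked genes differed between these conditions too, so a reversal cannot be assigned to housing.

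For Ccdc71, which did pass (adjusted p = 0.0485), the difference between the contrasts was 2.10 log2. Its single-housed KO libraries stood at 1.56, 2.32 and 1.59, against 3.94, 3.94 and 3.90 in single-housed WT libraries, and its group-housed libraries lay between 3.76 and 3.94.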

How the results depend on the processing

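In group housing 0 genes passed the adjusted threshold with a pseudocount of 0.1, with no filter, with a stricter filter, without a variance trend and with median-ratio scaling. A fit on the 6 compared libraries alone passed 8, 6 of them 2-level genes or genes of wide difference named above, plus Ttc4 and D130017N08Rik. Leaving out 1 library passed 0 to 11 genes (11 without WT library AGTTCC), and 379 to 646 at an unadjusted p under 0.05. Of 26 genes passing under any alternative, 0 did so under more than 1. Near Nptx2 the count at an unadjusted p under 0.05 was 19 to 25 across the other settings and 17 to 26 without 1 library. The Nptx2 difference stayed between 0.07 and 0.26 log2. Single housing passed 3 genes with the stricter filter, 9 on its own 6 libraries and 5 to 9 without 1 library, with 614 to 1724 unadjusted. The interaction passed 0 genes with a pseudocount of 0.1 and 0 without a variance trend, and 0 to 8 without 1 library, with 628 to 1497 unadjusted; it cannot be fitted on 6 libraries. Differences close to 0 changed sign in Ccdc71 (0.00 with median-ratio scaling, -0.05 to 0.03 without 1 library), Gad2 (-0.09 to 0.03) and Slc32a1 (-0.02 to 0.04). The cause was not tested. No paired analysis was possible because the deposited columns carry barcodes and no replicate numbers.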

Other observations

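Circadian clock genes, which the text above does not describe, had higher values in 14 of 20 tested members in group-housed KO, with a median of 0.051 log2. Dbp, a clock output factor, had levels of 5.29, 4.92 and 5.14 in KO libraries, against 5.11, 4.59 and 4.60 in WT libraries (0.35 ± 0.20 log2). Rora, a nuclear receptor of the clock loop, was the 1 member with an unadjusted p under 0.05, at 3.39, 3.35 and 3.38 in KO libraries, against 2.40, 2.96 and 3.40 in WT libraries. In single housing the median was -0.049 log2, and Dbp differed by -0.50 log2. The labels give no time of tissue collection.

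Neuropeptide genes were lower in 13 of 22, with a median of -0.035 log2 and 0 at an unadjusted p under 0.05. Vip, a peptide of another interneuron class, had levels of 1.50, 1.62 and 1.42 in KO libraries, against 1.66, 1.72 and 1.77 in WT libraries (-0.20 ± 0.09 log2).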
